A study of Mus musculus with 19 samples.

Results

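Egr1, Egr2, Nr4a1, Cd5 and Cd6 are mouse genes whose level in T cells is known to follow contact of the T cell receptor with self ligands. They were brought together by gene name, for that known behaviour, and with earlier results of these data known. They are 5 of the 8251 genes that had a probe set with a single gene symbol on the arrays. All probe sets that the probe table assigned to one of these symbols were taken, which gave 7, and none of the 7 was shared with another symbol. Egr1 had 2 probe sets, here called by the ends of their names _at and _i_at, Cd6 had 2, called _at and _s_at, and Egr2, Nr4a1 and Cd5 had 1 each. The ending _s_at marks probes that more than a single transcript can share. The Egr1 _i_at probe set had a mean signal of 23.6 over all arrays, under the filter of 26.4, so 6 of the 7 probe sets were tested.

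A T cell in lymphoid tissue is in repeated weak contact with self peptides held by MHC molecules, and this contact sends a low, continuing signal through its receptor. Along the ERK kinases and calcium the signal switches on Egr1 and Egr2, zinc finger transcription factors of the immediate early class. It also switches on Nr4a1, an orphan nuclear receptor also called Nur77, and the routes overlap between these genes. Cd5 and Cd6 are related surface receptors that damp receptor signalling, and the CD5 level of a mature T cell is set by how strongly its receptor meets self ligands. In hosts emptied of lymphocytes, transferred T cells divide in response to self ligands and to cytokines such as IL-7, a response called homeostatic proliferation.

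The 19 arrays measured RNA of OT-I CD8+ T cells, whose transgenic receptor recognises an ovalbumin peptide, after their transfer into b6 hosts and recovery from a source labelled ln/spleen. The host groups compared were unirradiated hosts (n = 4, titled nrd and sorted at day 6), irradiated hosts of day 5 (n = 8), of day 40 (n = 4) and of day 115 (n = 3). The titles and descriptions disagree for the day-5 group, where the descriptions put sorting at day 6, and for its arrays 1 and 2 the description leaves out which cells were sorted. The labels give neither age nor sex, do not say that samples of a group came from separate animals, and name no unirradiated group at day 40 or day 115, so at those days irradiation of the host and time after transfer cannot be told apart. The p-values measure the spread between these samples, which may be technical. An irradiated host lacks most of its lymphocytes at first and regains its own with time, while an unirradiated host keeps them throughout.

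The deposited signal was linear, and array medians lay between 49.6 and 53.7. The arrays fell into 2 clusters that the labels do not name, found from the correlation of all 8695 tested probe sets. Cluster 1 (n = 8) was made up of all 3 arrays of day 115, arrays 1 and 2 of day 40 and arrays 1 to 3 of day 5. Cluster 2 (n = 11) was made up of all 4 unirradiated arrays, arrays 3 and 4 of day 40 and arrays 4 to 8 of day 5. Day 115 and unirradiated hosts therefore shared no cluster, and for that comparison the cluster term rests on day 5 and day 40. Results of the members were computed in a model of group alone and in a model with a term for cluster. Cd8a, the co-receptor chain of the sorted cells, had a signal of at least 1851 in every array, and its group means were 2533 in unirradiated hosts, 2940 at day 5, 2567 at day 40 and 2079 at day 115. Cd3e, a chain of the receptor complex, had means of 284, 248, 226 and 243 in that order. The 8 CD8 T cell markers (of 11 listed) summed to 8523 to 10294 in unirradiated hosts, 9263 to 14642 at day 5, 8874 to 14248 at day 40 and 10429 to 12706 at day 115. Their sum was thus higher at day 115 than in unirradiated hosts, while Cd8a alone was not. Thy1 and Cd2 were called higher at day 115, 2 of 8 where 27.9% of all tested probe sets were called against unirradiated hosts. The summed signal of 14 B cell markers (of 15 listed) was 1444 to 1745 in unirradiated hosts, 1750 to 3131 at day 5, 2350 to 3649 at day 40 and 3019 to 4470 at day 115. The 7 plasma cell markers (of 9 listed) summed to 291 to 360, 300 to 510, 388 to 930 and 989 to 1322 in the same order, and the 10 myeloid markers (of 12 listed) to 429 to 457, 409 to 546, 385 to 447 and 421 to 455. Dendritic cell markers (7 of 8 listed) summed to 626 to 717, 546 to 1220, 647 to 1179 and 999 to 1696, and erythroid markers (5 of 8 listed) to 263 to 376, 297 to 2562, 415 to 1054 and 528 to 1309, again from unirradiated hosts to day 115. NK cell markers (4 of 7 listed) summed to 892 to 1544, 703 to 1525, 831 to 1059 and 658 to 809 in that order. Such sums are led by their brightest genes, and the genes of a list did not all move together. Klrd1, the brightest NK cell marker, had means of 1089 in unirradiated hosts and 583 at day 115, while Klrk1 had 51.4 and 76.1. In these 2 groups the plasma cell markers Txndc5 and Xbp1 had 112 and 860, and 47.0 and 34.8. The erythroid markers Hba-a1 and Klf1 had 137 and 745, and 46.2 and 39.0. Neutrophil markers (8 of 8 listed) stayed between 333 and 619 over all arrays, those of CD4 and regulatory T cells (5 of 6) between 263 and 352, and those of stroma and vessels (8 of 8) between 536 and 714. No marker was at 0 in this unit. B cells can also express Egr1, Egr2, Nr4a1, Cd5 and Cd72, and the part of the B cell signal in the results below was not tested. In bulk RNA, fewer cells of a type and less RNA per cell cannot be told apart.

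Egr1 was lower in all 3 irradiated groups than in unirradiated hosts, and Egr2 was lower at day 5 and day 115, while Nr4a1, Cd5 and Cd6 passed the test in no comparison. The threshold was an adjusted p under 0.05 in limma, with adjustment across the 8695 probe sets tested. At day 5, 2 of the 6 tested probe sets passed, both lower, where 0.794% of all probe sets passed in either direction and 0.38% were lower. At day 40, 1 of 6 passed, with 1.5% of all probe sets called and 0.334% called lower. At day 115, 2 of 6 passed, but there 27.9% of all probe sets were called and 12.8% were called lower, so the count of 2 lies near the share called in either direction. The median log2 difference of the 6 probe sets was -0.03 at day 5, -0.16 at day 40 and -0.09 at day 115, and that of all tested probe sets was 0.03, 0.03 and 0.01. The cluster term moved the members' median to -0.26, -0.40 and -0.53 at these times, and that of all tested probe sets to -0.003, -0.02 and -0.05. The 3 comparisons use the same 4 unirradiated arrays. With the cluster as a term, 1 of 6 passed at each of the 3 times, in each case Egr1, and 1.61%, 2.23% and 4.42% of all probe sets were called. Within cluster 2 alone, 2 of 6 passed at day 5 and 1 at day 40, where 2.38% and 3.07% of all probe sets were called.

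**Figure D1:**
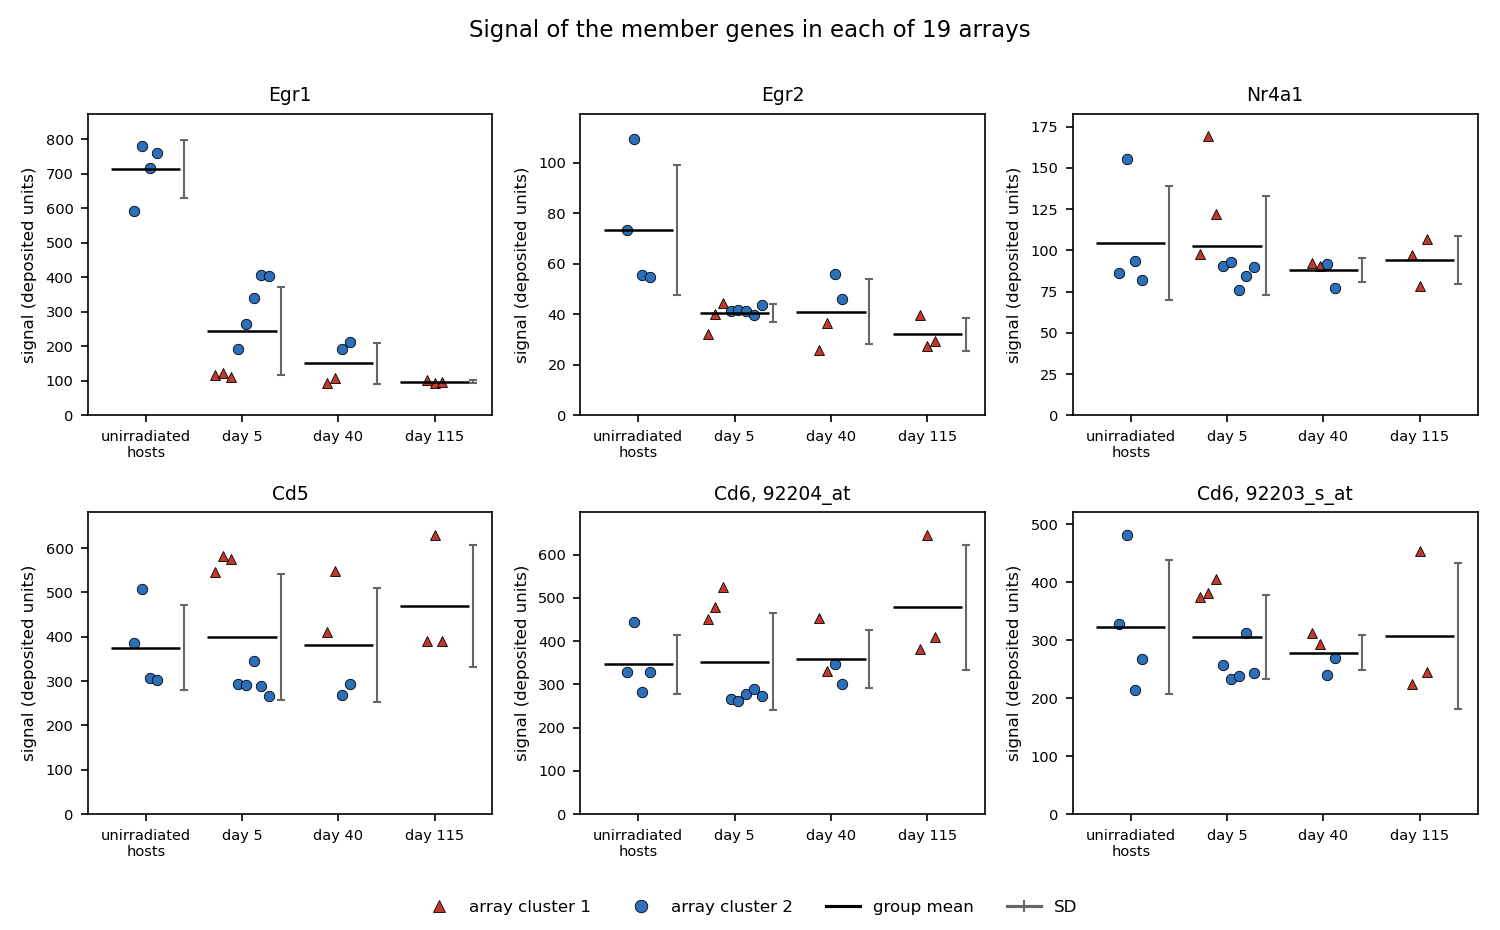
Signal (deposited linear units) of the 6 tested probe sets in each of the 19 arrays, by host group. Each point is an array, with triangles for array cluster 1 and circles for array cluster 2, the black line is the group mean and the grey bar the SD. Egr1 lies at 593 to 781 in unirradiated hosts and at or under 406 in every irradiated array, and Cd5 and Cd6 at day 5 lie higher in cluster 1 than in cluster 2.

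Egr1, the immediate early factor downstream of ERK and SRF, had signals of 593, 781, 716 and 761 in the 4 unirradiated arrays. At day 5 its signal was 112 at the lowest, 227 at the median and 406 at the highest. At day 40 it was 92.9, 107, 193 and 211, and at day 115 it was 102, 93.0 and 97.5. No irradiated array of any time reached the lowest unirradiated array. The group means ran in the order unirradiated hosts (713 ± 84.2, SD), day 5 (244 ± 127), day 40 (151 ± 59.6) and day 115 (97.4 ± 4.27). The mean was 0.343 of the unirradiated level at day 5, 0.212 at day 40 and 0.137 at day 115.

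On the log2(signal + 16) scale, Egr1 differed from unirradiated hosts by -1.64 ± 0.32 at day 5 (SE, adjusted p = 0.0223 in limma), by -2.19 ± 0.37 at day 40 (adjusted p = 0.00343) and by -2.68 ± 0.40 at day 115 (adjusted p = 0.000462). Groups that do not overlap, with the irradiated group lower, were found in 1.69% of all tested probe sets at day 5, in 5.23% at day 40 and in 21% at day 115. A term for cluster made the differences smaller, at -1.21 ± 0.16 (adjusted p = 0.000651), -1.61 ± 0.19 (adjusted p = 8.2e-05) and -1.51 ± 0.24 (adjusted p = 0.00173). Within cluster 2 alone, which holds all unirradiated arrays, the difference was -1.15 ± 0.20 at day 5 (adjusted p = 0.0103) and -1.73 ± 0.25 at day 40 (adjusted p = 0.00342). The day-5 call by group alone was lost without any 1 of the 4 unirradiated arrays, at differences of -1.72 without array 1 (adjusted p = 0.0559), -1.60 without array 2 (adjusted p = 0.0672), -1.64 without array 3 (adjusted p = 0.0789) and -1.61 without array 4 (adjusted p = 0.101). The day-40 and day-115 calls held in all 19 fits that left out 1 array.

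The Egr1 level at day 5 split by cluster. Day-5 arrays 1 to 3, of cluster 1, had 116, 121 and 112, and day-5 arrays 4 to 8, of cluster 2, had 191, 264, 341, 406 and 404. The day-40 arrays split alike, with 92.9 and 107 in cluster 1 and 193 and 211 in cluster 2. All 8 arrays of cluster 1 lay between 92.9 and 121, whatever the time, while in cluster 2 the day-40 arrays lay within the lower part of the day-5 range and both lay under the unirradiated arrays. The markers of the sorted cells did not split in a single direction at day 5. Cd8a had means of 1989 in cluster 1 and 3511 in cluster 2, Cd3e had 244 and 251, and Cd3g, another chain of the receptor complex, had 1746 and 662. Fos, another immediate early gene, had 442 in cluster 1 and 19.3 in cluster 2. What sets the clusters apart was not tested.

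Between irradiated groups none of the 6 probe sets passed in limma. At an unadjusted p under 0.05, 0 of 6 differed between day 40 and day 5, 1 between day 115 and day 5, and 0 between day 115 and day 40, where 12.1%, 31.9% and 13.5% of all probe sets had such a p. At the adjusted threshold 1.25%, 13.9% and 0.092% of all probe sets passed. The 1 was Egr1. Its day 115 minus day 5 difference was -1.04 ± 0.36 (adjusted p = 0.0593), and every day-115 array lay under every day-5 array, as was the case with the day-115 group lower for 5.13% of all probe sets. That difference passed without day-5 array 1 (-1.15, adjusted p = 0.029), array 2 (-1.14, adjusted p = 0.0315) or array 3 (-1.16, adjusted p = 0.027), which are the 3 day-5 arrays of cluster 1. It was -0.31 ± 0.20 with the cluster as a term (adjusted p = 0.293) and -0.22 ± 0.13 within cluster 1 (adjusted p = 0.348). Day 40 minus day 5 was -0.55 ± 0.32 (adjusted p = 0.576), and day 115 minus day 40 was -0.49 ± 0.40 (adjusted p = 0.564). In the order of Egr1 levels, neighbouring irradiated times thus did not differ beyond their spread, and the step between day 5 and unirradiated hosts did.

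The other Egr1 probe set, _i_at, read near the floor of the arrays. Its means were 26.7 ± 3.76 in unirradiated hosts, 23.5 ± 3.09 at day 5, 21.7 ± 3.30 at day 40 and 22.3 ± 6.21 at day 115 (SD). Every irradiated group overlapped the unirradiated arrays, and no test was made on it.

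Egr2, which in T cells is known for restraining activation together with its relative Egr3, had signals of 73.3, 110, 55.5 and 54.8 in unirradiated hosts. At day 5 the lowest array had 32.4, the median was 41.2 and the highest had 44.3. At day 40 the values were 25.8, 36.5, 55.8 and 46.0, and at day 115 they were 39.7, 27.3 and 29.3. Day-5 and day-115 arrays all lay under the lowest unirradiated array, and a single day-40 array, array 3, lay just inside the unirradiated range. The means were 73.3 ± 25.7, 40.5 ± 3.68, 41.0 ± 12.9 and 32.1 ± 6.64 (SD) from unirradiated hosts to day 115.

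Egr2 fell by 0.62 ± 0.14 on the log2 scale at day 5 (SE, adjusted p = 0.0455 in limma) and by 0.86 ± 0.18 at day 115 (adjusted p = 0.00327). At day 40 the difference was -0.63 ± 0.16 (adjusted p = 0.0612). Within cluster 2 the day-5 difference was -0.59 ± 0.14 (adjusted p = 0.0463), and the day-40 difference was -0.38 ± 0.18 (adjusted p = 0.331). The day-5 call lay close to the threshold. It was lost in 17 of the 19 fits that left out 1 array, and held without day-40 array 1 or day-40 array 3. Unirradiated array 2, with 110, was the highest of its group in all 6 tested probe sets. Without it the Egr2 difference was -0.44 at day 5 (adjusted p = 0.154) and -0.68 at day 115 (adjusted p = 0.00792), and without day-40 array 3 the day-40 difference of -0.75 passed (adjusted p = 0.0285). The day-115 call held in all 19 fits. The differences with a cluster term were -0.54 ± 0.14 at day 5 (adjusted p = 0.0564), -0.52 ± 0.16 at day 40 (adjusted p = 0.118) and -0.64 ± 0.21 at day 115 (adjusted p = 0.0791). Egr2 did not split by cluster at day 5, where the means were 38.9 in cluster 1 and 41.5 in cluster 2, while its day-40 arrays had 25.8 and 36.5 in cluster 1 and 55.8 and 46.0 in cluster 2.

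Nr4a1, the nuclear receptor used as a readout of recent receptor signals in reporter mice, had 86.1, 155, 93.4 and 82.2 in unirradiated hosts. At day 5 the lowest array had 75.9, the median was 91.7 and the highest had 169. At day 40 the signals were 92.2, 90.4, 92.0 and 77.2, and at day 115 they were 97.3, 78.3 and 107. All 4 groups overlapped, and the highest values were single arrays, unirradiated array 2 and day-5 array 2. The log2 difference from unirradiated hosts was -0.01 at day 5 (95% interval -0.36 to 0.34), -0.17 at day 40 (-0.58 to 0.23) and -0.10 at day 115 (-0.54 to 0.34). A cluster term gave -0.14 ± 0.15, -0.35 ± 0.18 and -0.44 ± 0.23, and none passed. At day 5 the 3 arrays of cluster 1 had 97.6, 169 and 122 and the 5 of cluster 2 had 75.9 to 92.9.

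Egr2 and Nr4a1 differ in the sequence before their start, and the windows are shown because one of these genes fell in irradiated hosts and the other did not pass the test. RefSeq windows of GRCm38.p6 that reach from 250 bases before to 50 after a gene start held 5 starts of Egr2, 1 of Nr4a1 and 1 of Cd5. The Egr2 window shown lies at chr10:67537619-67537918 on the plus strand, and the Nr4a1 window at chr15:101266596-101266895 on the plus strand. The 5 motifs were searched on both strands, namely the CArG box bound by SRF, through which ERK signals reach immediate early genes, the CRE core TGACG, the EGR site GCGNGGGCG, the AP-1 site TGANTCA and the NR4A site AAAGGTCA. Capitals mark the matches.
Egr2: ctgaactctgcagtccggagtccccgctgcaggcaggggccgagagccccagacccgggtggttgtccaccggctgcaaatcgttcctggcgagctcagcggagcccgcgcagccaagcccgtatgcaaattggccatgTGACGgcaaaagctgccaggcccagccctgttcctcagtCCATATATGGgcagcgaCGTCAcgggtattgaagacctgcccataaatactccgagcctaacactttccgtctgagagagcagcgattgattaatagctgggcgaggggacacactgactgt
Nr4a1: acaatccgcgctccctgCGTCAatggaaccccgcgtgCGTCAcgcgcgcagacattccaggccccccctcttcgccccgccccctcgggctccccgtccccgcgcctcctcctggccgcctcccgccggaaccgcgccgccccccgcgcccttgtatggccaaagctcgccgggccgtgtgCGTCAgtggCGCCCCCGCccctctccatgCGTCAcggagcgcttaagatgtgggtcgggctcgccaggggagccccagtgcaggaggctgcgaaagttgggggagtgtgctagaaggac
The Egr2 window held 1 CArG box that begins 72 bases before the start, between 2 CRE cores that begin 111 and 55 bases before it. It overlaps the windows of 2 further Egr2 starts with the same matches, and of the remaining 2 windows, 1 held a CArG box alone and 1 held none of the 5 motifs. The Nr4a1 window held 4 CRE cores and 1 EGR site, which begins 60 bases before the start. It had no full match to the CArG box pattern CCWWWWWWGG, where W is A or T. It did hold ccttgtatgg, which departs from that pattern at 1 base, and near matches were not searched for in any window. None of the 5 motifs was in the Cd5 window, at chr19:10738925-10739224 on the minus strand. Of all 32851 windows, 1.63% held a CArG box, 20.8% a CRE core, 5.55% an EGR site, 7.81% an AP-1 site and 1.51% an NR4A site. A match is a string of letters and was not tested as a site.

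Cd5, the surface receptor whose level is set by self contact, had signals of 385, 508, 307 and 303 in unirradiated hosts. At day 5 the lowest array had 265, the median was 320 and the highest had 583. At day 40 the values were 412, 549, 268 and 294, and at day 115 they were 390, 630 and 390 (390 being arrays 1 and 3). The groups overlapped at every time. The log2 difference from unirradiated hosts was 0.04 at day 5 (95% interval -0.50 to 0.58), -0.01 at day 40 (-0.63 to 0.61) and 0.30 at day 115 (-0.36 to 0.97). All 3 were negative when the cluster was a term, at -0.28 ± 0.16, -0.43 ± 0.18 and -0.54 ± 0.23, and none passed (adjusted p = 0.58, 0.315 and 0.183).

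Cd5 split by cluster in the direction opposite to Egr1. Its 3 day-5 arrays of cluster 1 had 545, 583 and 575, and the 5 of cluster 2 had 265 to 345, so the means of 567 and 297 differed 1.91 times. At day 40 the arrays of cluster 1 had 412 and 549 and those of cluster 2 had 268 and 294. Egr1 at day 5 was 2.76 times higher in cluster 2. At day 5 and day 40 Cd5 was thus high in the cluster where Egr1 was low. Inside a cluster the genes did not oppose each other, with a correlation of 0.46 in cluster 1 (n = 8) and 0.57 in cluster 2 (n = 11) across arrays. The summed B cell markers also split at day 5, with 2561 to 3131 in cluster 1 and 1750 to 2050 in cluster 2, and their part in the Cd5 values was not tested.

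Cd6, a relative of CD5 that binds CD166, had signals on the _at probe set of 329, 443, 282 and 329 in unirradiated hosts. At day 5 the lowest array had 260, the median was 283 and the highest had 524. At day 40 the values were 453, 331, 348 and 300, and at day 115 they were 381, 644 and 409. The day-115 mean of 478 ± 145 was the highest of the 4 groups, and array 2 raised it. The difference from unirradiated hosts, 0.43 with a 95% interval of -0.13 to 0.99, did not pass in limma (adjusted p = 0.238). The differences were -0.01 at day 5 and 0.05 at day 40. The _s_at probe set gave -0.04, -0.15 and -0.07 at day 5, day 40 and day 115, so the probe sets of Cd6 disagreed in sign at day 40 and day 115 without either passing. Both were, with a cluster term, negative at every time, between -0.53 and -0.18. Both also read higher in cluster 1 at day 5, with means of 485 in cluster 1 and 273 in cluster 2 on the _at probe set and of 387 and 257 on the _s_at probe set.

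**Figure D2:**
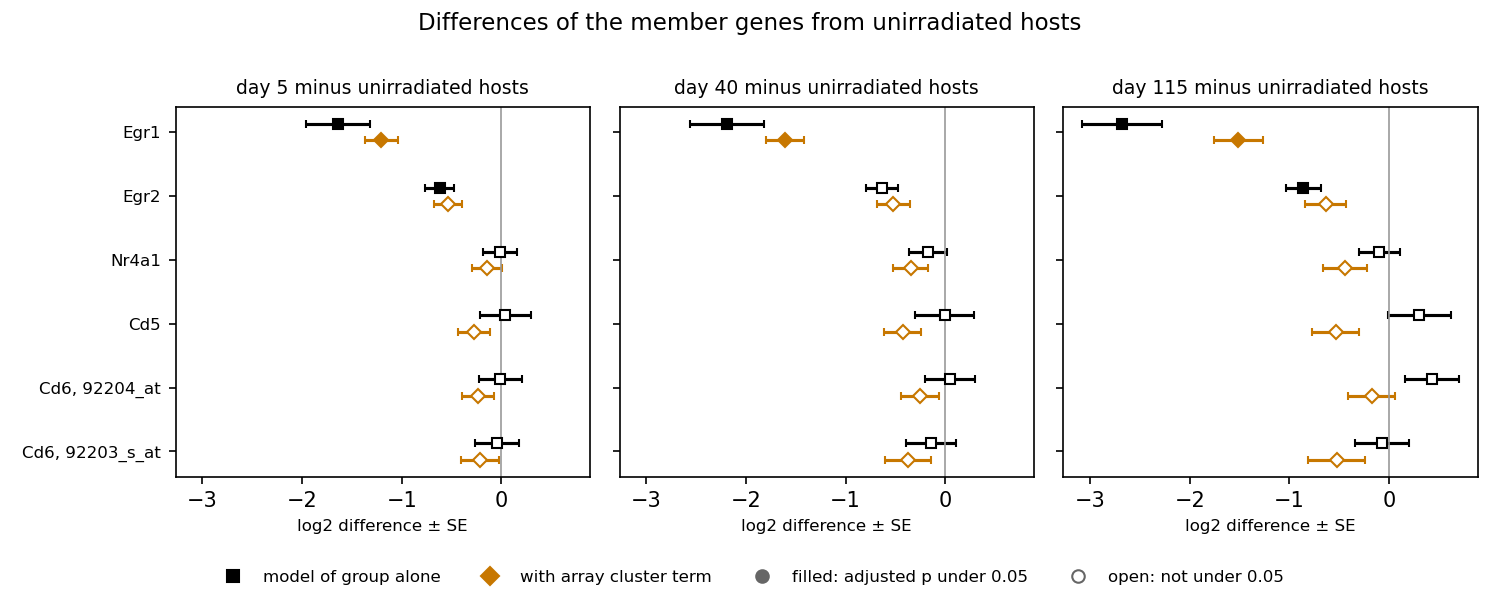
Log2 difference (signal + 16) of each irradiated group minus unirradiated hosts for the 6 tested probe sets, with SE. Black squares are the model of group alone, orange diamonds the model with the array cluster as a term, and filled symbols have an adjusted p under 0.05. Egr1 is filled in both models at all 3 times, and Egr2 is filled in the model of group alone at day 5 and day 115.

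Day 5 and day 40 are the groups with arrays in both clusters, so the day 40 minus day 5 difference could be set between clusters. For Egr1 it was -0.19 in cluster 1 and -0.58 in cluster 2, and for Egr2 it was -0.22 and 0.21. None of the 6 probe sets passed the interaction test in limma (adjusted p = 0.898 to 0.969), and at an unadjusted p under 0.05 the count was also 0.

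Across arrays of the same cluster, the members were related to different degrees. The correlation of log2 signal was 0.88 in cluster 1 (n = 8) and 0.82 in cluster 2 (n = 11) between Cd5 and the Cd6 _s_at probe set, and 0.72 and 0.60 between Egr1 and Egr2. Egr2 and Nr4a1 had 0.60 and 0.79. Between Egr1 and the Cd6 _at probe set it was -0.14 in cluster 1 and 0.45 in cluster 2. The arrays of a cluster come from several groups and share that cluster, so these values describe the arrays and are given without a test.

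Likeness to a member was taken as the lower of its correlations in cluster 1 and in cluster 2. Closest to Egr1 were Ephx1, which encodes a microsomal epoxide hydrolase, at 0.88, Zfp36l1, which encodes an RNA-binding protein that promotes mRNA decay, at 0.86, and Golph3, which encodes a Golgi protein, at 0.80. Zfp36l1 had means of 646 in unirradiated hosts, 357 at day 5, 272 at day 40 and 140 at day 115, the same order of groups as Egr1. Golph3 had 486, 331, 226 and 89.4 in that order, and Ephx1 had 169, 125, 101 and 114. These genes were picked by correlation over arrays of several groups. A shared order of group means follows in part from that choice and is no separate result. Closest to Egr2 were S100a9 (0.81), Arntl (0.76) and Bcl6 (0.74), and closest to Nr4a1 were Ccl3 (0.84), S100a8 (0.78) and Junb (0.71). S100a8 and S100a9 encode the calprotectin subunits that mark neutrophils. The summed signal of the 8 neutrophil markers was 412 in unirradiated array 2, the highest of its group, and 547 and 619 in day-5 arrays 2 and 3, the highest of all arrays, and unirradiated array 2 was also the array with the highest Egr2 and Nr4a1 of its group. The part of these cells in the Egr2 and Nr4a1 values was not tested. Closest to Cd5 were Tspan32 (0.81), Clcn5 (0.78) and Smim26 (0.75), and closest to Cd6 were Myd88 (0.81), Ilvbl (0.80) and Rnaseh2c (0.72).

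**Figure D3:**
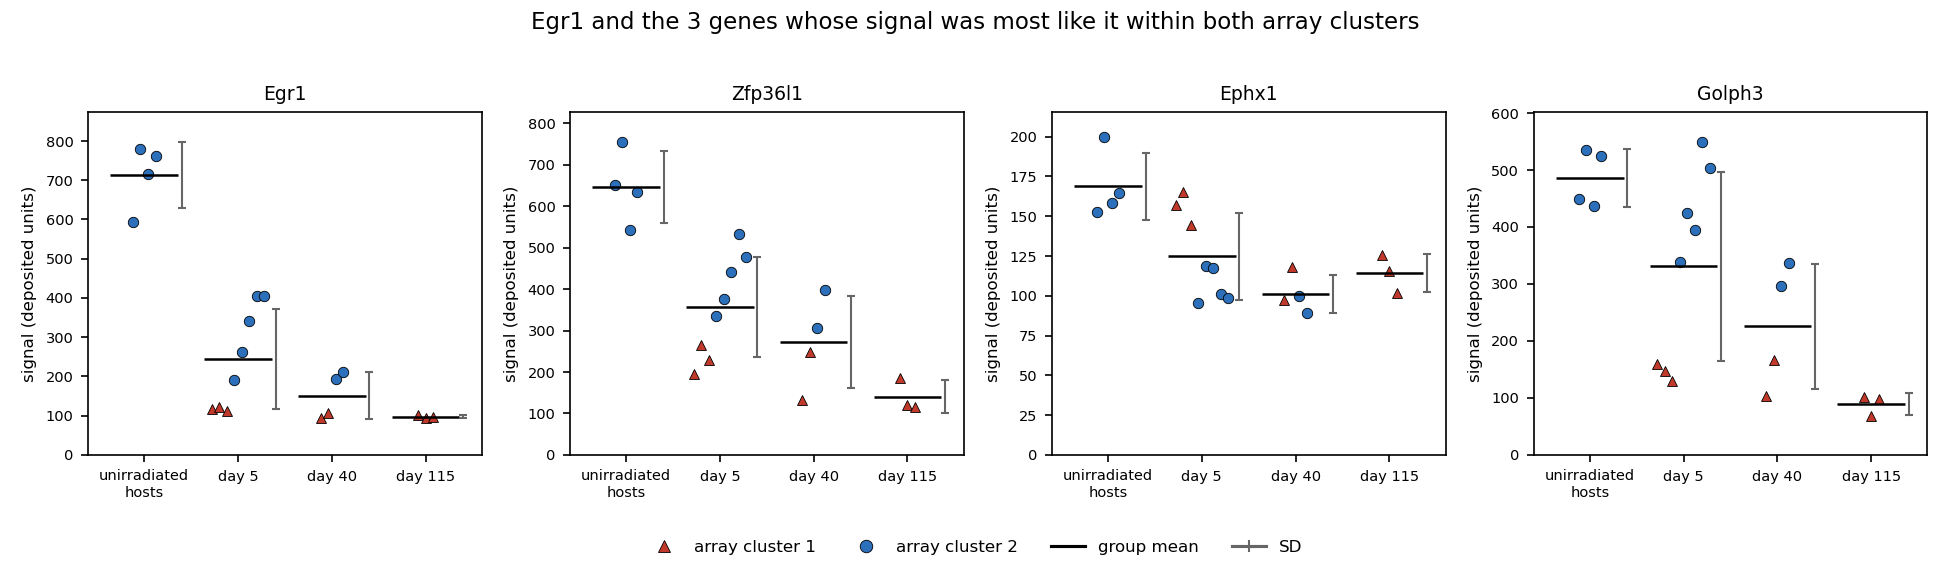
Signal (deposited linear units) of Egr1 and of the 3 genes with the highest likeness to it, in each of 19 arrays by host group. Points are arrays, triangles cluster 1 and circles cluster 2, black lines group means and grey bars SD. Zfp36l1 and Golph3 have group means in the same order as Egr1, and the Ephx1 means are lowest at day 40 (101). The genes were picked by correlation with Egr1 over these same arrays, so a shared order follows in part from that choice.

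The closest relatives of the members could be followed only in part. Nr4a2 lay under the filter, and Egr3, Egr4 and Nr4a3 were not analysed here. Of the EGR corepressors, which bind EGR factors and limit their activity, Nab1 and Nab2 were tested. Nab1 was 168 ± 36.9 at day 115, against 428 ± 117 in unirradiated hosts (SD), and fell by 1.25 ± 0.44 on the log2 scale (SE, adjusted p = 0.0403 in limma). The Nab1 difference was -0.10 with the cluster as a term (adjusted p = 0.877), and its call was lost in 6 of the 19 fits without 1 array, namely those without any of the 3 day-115 arrays or unirradiated array 1, 2 or 4. Nab2 was 35.8 ± 3.55 at day 115, against 37.8 ± 2.50 in unirradiated hosts, a difference of -0.06 (adjusted p = 0.707) that was -0.23 with the cluster as a term (adjusted p = 0.233).

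Among the 22 tested immediate early genes (of 30 listed) of receptor and ERK signals, other than the members, 0 passed in limma at day 5 and 0 at day 40. At an unadjusted p under 0.05, 1 was higher and 4 were lower at day 5, and 2 were higher and 2 lower at day 40, where 13.5% and 15.3% of all probe sets had such a p. At day 115, Ier3 and Pim1 rose and Jund, Dusp6, Btg1 and Nfkbia fell, 6 of 22 where 27.9% of all probe sets were called. The cluster term left Nfkbia as the single one of these 6 that passed, and Fos and Dusp1, a MAP kinase phosphatase gene, then also passed as lower, so that 3 of 22 were called where 4.42% of all probe sets were. The term rests on day 5 and day 40, and for Fos the clusters differed unequally at these times, as given below. Dusp1 spanned 31.0 to 253 at day 5 but 28.7 to 37.8 at day 40, so its difference with the term leans on the day-5 arrays. Ier3, Dusp6 and Btg1 were among the calls lost, at 0.29 (adjusted p = 0.0766), -0.55 (adjusted p = 0.215) and -0.94 (adjusted p = 0.073). The list median was 0.09, -0.04 and -0.03 at the 3 times, beside 0.03, 0.03 and 0.01 over all probe sets. It was -0.06, -0.22 and -0.44 with the cluster term, beside -0.003, -0.02 and -0.05 over all probe sets. Nfkbia, which encodes the inhibitor that holds NF-kappaB in the cytoplasm, followed the order of Egr1, with 407 ± 48.2 in unirradiated hosts, 203 ± 93.9 at day 5, 151 ± 92.1 at day 40 and 63.1 ± 15.6 at day 115 (SD). It fell by 2.43 ± 0.44 on the log2 scale at day 115 (adjusted p = 0.00158), in all 19 fits without 1 array. In the model with a cluster term Nfkbia was lower at all 3 times, with differences of -0.58 at day 5 (adjusted p = 0.0412), -0.84 at day 40 (adjusted p = 0.0077) and -1.07 at day 115 (adjusted p = 0.0066). Jund, an AP-1 subunit, was 721 ± 105 at day 115, against 1840 ± 62.2 in unirradiated hosts, a difference of -1.34 ± 0.37 (adjusted p = 0.0133) that was -0.42 with the cluster as a term (adjusted p = 0.4). Pim1, a kinase gene that cytokines also induce, was 767 ± 237 at day 115, against 283 ± 23.7 in unirradiated hosts, and its rise of 1.34 ± 0.46 (adjusted p = 0.0373) was -0.037 with the cluster as a term (adjusted p = 0.939). The Pim1 call was lost without day-115 array 1 or 3 or any of the 4 unirradiated arrays.

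Fos, the immediate early partner of JUN proteins, did not follow Egr1. Its signals were 31.2, 94.97, 36.2 and 68.9 in unirradiated hosts. At day 5 they were 14.8 at the lowest, 24.9 at the median and 907 at the highest. At day 40 they were 26.9, 110, 13.8 and 86.8, and at day 115 they were 13.8, 13.8 and 16.6. High Fos sat in day-5 arrays 1 to 3, with 274, 907 and 146, where Egr1 was low. The day-115 difference from unirradiated hosts was -1.18 ± 0.94 (adjusted p = 0.358 in limma) in the model of group alone and -3.49 ± 0.79 with a cluster term (adjusted p = 0.0189). On the log2 scale Fos was higher in cluster 1 by 3.33 at day 5 and by 0.41 at day 40. A single cluster term does not describe both times, so the difference with that term leans on the high day-5 arrays.

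Along the route from LAT through RAS and RAF to ERK, SRF and its partners, 0 of 13 tested genes (of 24 listed) passed at day 5 and 0 at day 40 in limma, and at an unadjusted p under 0.05 the counts were 0 at day 5 and 1 in each direction at day 40. At day 115, Araf rose and Nras fell, 2 of 13 where 27.9% of all probe sets were called. Araf, a RAF kinase gene, was 255 ± 46.6 at day 115, against 111 ± 12.3 in unirradiated hosts, a difference of 1.09 ± 0.20 (SE, adjusted p = 0.00171) that was 0.67 with the cluster as a term (adjusted p = 0.0487). Nras, which encodes a RAS switch protein, was 556 ± 186 at day 115, against 3978 ± 549 in unirradiated hosts, a difference of -2.85 ± 0.93 (adjusted p = 0.0306). The sign of the Nras difference turned to 0.15 with the cluster as a term (adjusted p = 0.795), and its call was lost without any of the 3 day-115 arrays or unirradiated array 1, 3 or 4. In the receptor complex and its kinases, 0 of 14 tested (of 16 listed) passed at day 5 and at day 40 in limma, where 0 and 4 had an unadjusted p under 0.05. Such a p was found for 13.5% of all probe sets at day 5 and 15.3% at day 40. At day 115, Vav1, an exchange factor gene, rose by 0.75 ± 0.18 (adjusted p = 0.00765), which was 0.79 with the cluster as a term (adjusted p = 0.0441). Ptprc, which encodes the phosphatase CD45, fell by 1.43 ± 0.35 (adjusted p = 0.00879), which was -0.56 with the cluster as a term (adjusted p = 0.257). These were 2 of 14, against the same 27.9% of all probe sets.

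Among genes that restrain receptor signals, as CD5 does, 0 of 15 tested (of 26 listed) passed at day 5 in limma, 1 at day 40 and 7 at day 115. Of the 7, 5 were higher (Ptpn6, Ptpn22, Csk, Dgka and Inpp5d) and 2 were lower (Rasa1 and Pag1), where 27.9% of all probe sets were called. At an unadjusted p under 0.05, 2 were higher at day 5, 6 were higher at day 40, and 8 were higher and 3 lower at day 115. Of all probe sets, 13.5%, 15.3% and 40.7% had such a p at these times. With the cluster term 1 of 15, Inpp5d, passed at day 115, where 4.42% of all probe sets did. The differences of Ptpn6, Ptpn22, Csk and Dgka were then 0.23, 0.43, 0.47 and 0.47 (adjusted p = 0.595, 0.307, 0.27 and 0.334). Inpp5d, which encodes the lipid phosphatase SHIP-1, ran opposite to Egr1, with 82.5 ± 6.61 in unirradiated hosts, 117 ± 43.8 at day 5, 186 ± 56.7 at day 40 and 292 ± 77.3 at day 115 (SD). It rose by 1.62 ± 0.28 on the log2 scale at day 115 (SE, adjusted p = 0.00122), by 0.84 with the cluster as a term (adjusted p = 0.0156), and passed in all 19 fits without 1 array. Ptpn22, which encodes a phosphatase that acts on the proximal kinases, was 1709 ± 145 at day 40, against 869 ± 146 in unirradiated hosts, a rise of 0.97 ± 0.20 (adjusted p = 0.0188) that was 0.86 with the cluster as a term (adjusted p = 0.0209). The day-40 Ptpn22 call was lost without day-40 array 4 or unirradiated array 1 or 3. Rasa1, a RAS GTPase-activating protein gene, fell by 1.73 ± 0.43 at day 115 (adjusted p = 0.00889), and Pag1, the adaptor gene that anchors CSK, by 1.65 ± 0.60 (adjusted p = 0.048). With the cluster as a term these were -0.50 (adjusted p = 0.29) for Rasa1 and 0.20 (adjusted p = 0.698) for Pag1, and the Pag1 call was lost in 11 of the 19 fits without 1 array. The list median was 0.18, 0.31 and 0.30 at the 3 times, beside 0.03, 0.03 and 0.01 over all probe sets, and 0.05, 0.22 and 0.15 with the cluster term, beside -0.003, -0.02 and -0.05. No test was made of the list as a whole. The summed B cell markers had their group ranges in the same order as the Inpp5d means, and their part in the Inpp5d values was not tested.

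On the calcium route to Nr4a1, 0 of 15 tested genes (of 22 listed) passed at day 5 and 0 at day 40 in limma, where at an unadjusted p under 0.05 there was 1 in each direction at each time. Such a p was found for 13.5% and 15.3% of all probe sets at these times. At day 115, Hdac7, a repressor gene whose product holds down Nr4a1 in developing T cells, lay at 602 to 1139, against 327 to 361 in unirradiated hosts, a rise of 1.11 ± 0.24 (SE, adjusted p = 0.00471). Ppp3ca, a calcineurin subunit gene, fell by 1.85 ± 0.56 (adjusted p = 0.0215), and Calm2, a calmodulin gene, by 0.43 ± 0.09 (adjusted p = 0.00382). These were 3 of 15, against 27.9% of all probe sets. None of the 3 passed with the cluster as a term, at 0.60 (adjusted p = 0.127), -0.21 (adjusted p = 0.73) and -0.34 (adjusted p = 0.0767). The Ppp3ca call was lost without day-115 array 3 or unirradiated array 4. Of the ligands reported for CD5 and CD6, Cd72 was tested and is also a B cell marker. It was 188 ± 55.6 at day 40, against 104 ± 29.3 in unirradiated hosts, a difference of 0.76 ± 0.26 (adjusted p = 0.168) that was 1.00 with the cluster as a term (adjusted p = 0.031).

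**Figure D4:**
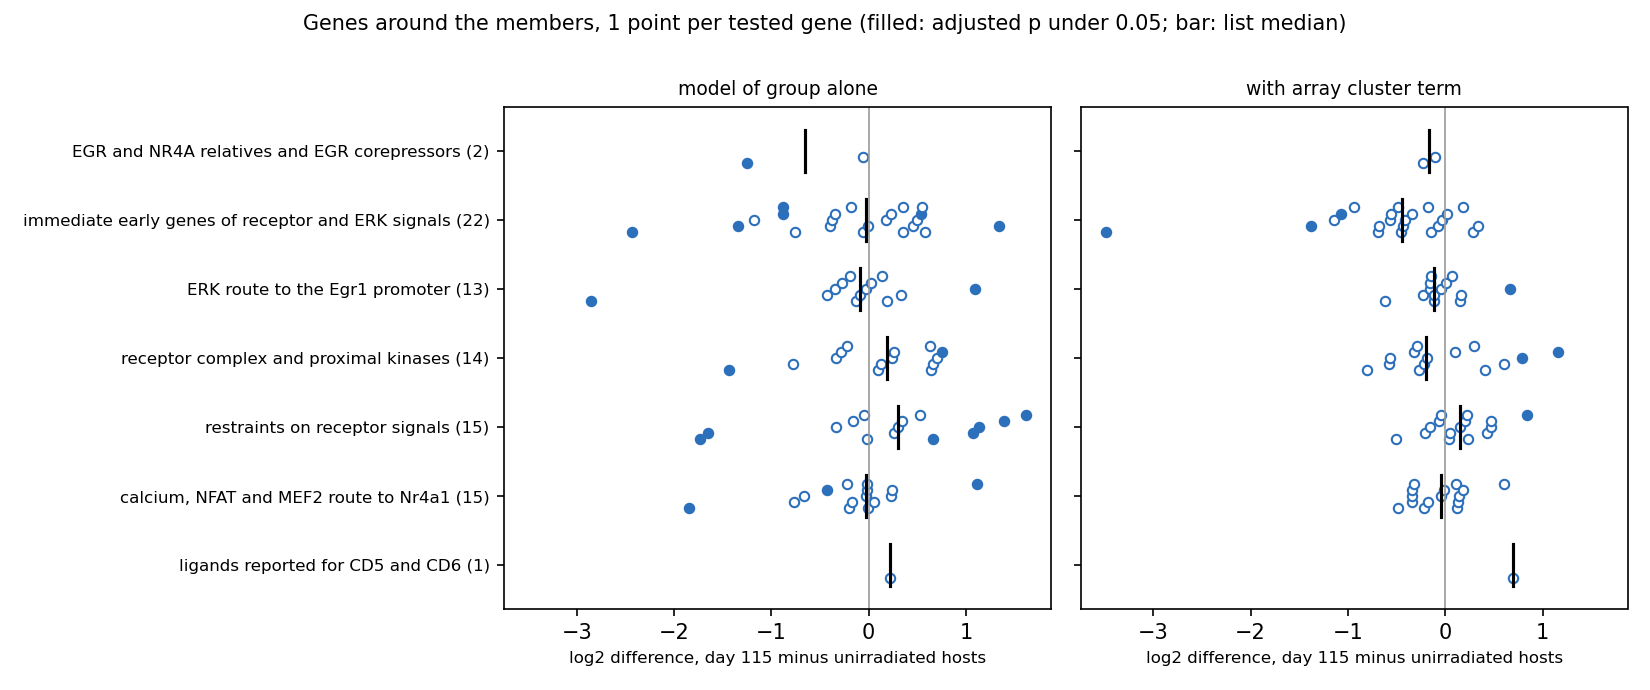
Log2 difference of day 115 minus unirradiated hosts for the genes around the members, a point per tested gene, by list, with the number of tested genes in brackets. The left panel is the model of group alone and the right panel the model with the array cluster as a term, filled points have an adjusted p under 0.05, and bars are list medians. Among the restraints 7 of 15 points are filled on the left and 1, Inpp5d, on the right.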

How the data were processed

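The deposited table gave the authors' intensity per probe set and array, on a linear scale, for 12488 probe sets in 19 mouse samples. The method behind the intensities is not stated by the labels or headers used here, and no scan date or batch is named. Gene symbols came from GEO's platform annotation, which can be old. Of 12422 probe sets other than controls, 10833 had 1 symbol, 396 several and 1193 none in that table. The 8695 probe sets tested had a mean signal over 26.4, the 30th percentile. From the deposited intensity, log2(signal + 16) was computed with no further normalisation, because array medians were nearly equal, and fitted in R 4.3.3 with limma 3.58.1, with group as the factor, an intensity trend and Benjamini-Hochberg adjustment over all tested probe sets. A fold change on this scale understates the change of a dim gene. The procedure was tested on simulated data that held independent noise and no array clusters. That test does not show how the clusters affect the calls. Arrays limit the precision through their number.

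The members, the 7 pathway lists and the 10 marker lists were chosen with earlier results of these data known. Named are all probe sets of the 5 genes, up to 3 genes per list and comparison with the largest differences past the threshold, by the probe set of highest mean signal, the 3 genes most like each member, and Fos, Cd8a and Cd3e as context. Genes named beyond that rule (Dusp1, Dusp6, Btg1, Ptpn6, Nab2, Cd72, Nr4a2, Cd3g, Thy1, Cd2, Klrd1, Klrk1, Txndc5, Xbp1, Hba-a1, Klf1) make up counts or stand beside a result and were named after their values were seen. Array clusters came from average linkage on 1 minus the Pearson correlation. Alternatives were other pseudocounts, filters, normalisations, fits and sample sets. Promoter windows came from RefSeq (GRCm38.p6). Replicate numbers were shared between groups in the labels. Of 21 same-numbered pairs between groups, 8 deviated together at a correlation over 0.1 and the others did not, so the number was not used as a block.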

Additional observations from a re-analysis of the deposited data

Results flagged for a closer look

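In groups of 4 to 10 arrays, 4 values of the members stood apart from their group by Dixon's test at its 95% critical value, among 21 groups looked at, where chance gives about 1 in 20. The Egr1 _i_at probe set, which lay under the filter, had 26.6 in day-40 array 4 and 19.4 to 20.5 in the other day-40 arrays. Egr2 had 32.4 in day-5 array 1, below the other 7 day-5 arrays at 39.8 to 44.3. Nr4a1 had 155 in unirradiated array 2 and 82.2 to 93.4 in the other unirradiated arrays. Nr4a1 had 77.2 in day-40 array 4 and 90.4 to 92.2 in the other day-40 arrays.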

How the results depend on the processing

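The 33 alternatives comprised 19 fits that left out 1 array and 14 others. The Egr1 difference from unirradiated hosts was negative in every one that held both groups. The fit within cluster 1 had no unirradiated array, and the fit within cluster 2 had no day-115 array. Leaving out 1 array gave Egr1 differences of -1.76 to -1.52 at day 5, -2.36 to -2.01 at day 40 and -2.76 to -2.63 at day 115, and -0.72 to -0.37 for day 40 minus day 5, -1.16 to -0.91 for day 115 minus day 5 and -0.67 to -0.32 for day 115 minus day 40. The number of member probe sets called was then 0 to 2, 1 to 2 and 2 to 2 against unirradiated hosts, and 0 to 0, 0 to 1 and 0 to 0 between irradiated groups, in the same order.

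A fit of day 5 and unirradiated hosts alone gave Egr1 -1.64 with an adjusted p of 0.0544 and 0 members called. Array weights made Egr1 pass between irradiated groups, at -0.62 for day 40 minus day 5, -1.41 for day 115 minus day 5 and -0.79 for day 115 minus day 40, with 1, 2 and 1 members called, the second for day 115 minus day 5 being the Cd6 _at probe set (0.48, adjusted p = 0.0264). With those weights 1496, 3702 and 3026 of all 8695 probe sets were called in the same comparisons, so the member counts do not stand out. Without day-5 arrays 1 and 2, day 115 minus day 5 was -1.30 and passed, with 1 member called where 2329 of all 8695 probe sets were. The day-5 count was 1 with the cluster term, the 50th percentile filter, median centring, no filter, no intensity trend, a pseudocount of 1 or without day-5 arrays 1 and 2, Egr2 being lost. The day-115 count was 1 with the cluster term and with the 50th percentile filter, under which Egr2 was not tested. With the cluster term, 3 day-115 differences of other genes changed sign, Nras to 0.15, Pag1 to 0.20 and Pim1 to -0.037.

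Calls over all probe sets ranged over the 14 other settings from 40 to 1707 at day 5 (69 as reported), 111 to 968 at day 40 (130) and 384 to 4097 at day 115 (2427), and from 1 to 1496 for day 40 minus day 5 (109), 111 to 3702 for day 115 minus day 5 (1205) and 0 to 3026 for day 115 minus day 40 (8). Leaving out 1 array gave 13 to 91, 54 to 164, 1554 to 2590, 25 to 187, 589 to 1653 and 3 to 87 in the same order. Without unirradiated array 1, 2, 3 or 4 the day-5 total was 23, 38, 25 or 13, and the share of all probe sets set beside the members' count falls with it. Of the 8 calls of day 115 minus day 40, 100% were higher, against 83.3% after quantile normalisation, 89.5% after median centring, 64.7% with the cluster term, 52.5% with array weights and 59.8% without day-40 array 1.

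The replicate number did not pair the samples throughout. Of 21 same-numbered pairs between groups, the correlation of deviations ran from -0.67 to 0.76 and passed 0.1 in 8, and in 15 of 42 looks a sample correlated best with its own number in the other group. Between day 5 and day 40 it was 0.64, 0.62 and 0.76 for arrays 1, 2 and 4, which share a cluster. For array 3, which does not, it was -0.67. With the number as a block, Egr1 differed by -2.29 at day 5, -2.19 at day 40 and -2.56 at day 115, and 1707 probe sets were called at day 5. The cause was not tested for any of these shifts. The second Egr1 probe set, at a mean of 23.6, lay under the filter of 26.4, and Egr2, at 46.2, was the dimmest of the tested probe sets. Small changes may not be resolved at such signals, which was not tested.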

Other observations

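Dusp1, a phosphatase gene of the immediate early class that turns off MAP kinases, was at 26.0 ± 2.66 at day 115, against 37.4 ± 0.94 in unirradiated hosts (SD). Its difference was -0.35 by group alone (adjusted p = 0.554 in limma) and -1.37 with the array cluster as a term (adjusted p = 0.0316). At day 5 its highest array had 253 and its median was 39.1. Its day-40 arrays spanned 28.7 to 37.8, so the Dusp1 difference with the cluster term leans on the day-5 arrays. Txk, a kinase gene of the TEC family, was 1466 ± 340 at day 40 and 1464 ± 146 at day 115, against 930 ± 195 in unirradiated hosts. With the cluster as a term it was higher at day 40 by 0.89 (adjusted p = 0.013) and at day 115 by 1.16 (adjusted p = 0.0104), and by group alone its differences of 0.64 (adjusted p = 0.186) and 0.66 (adjusted p = 0.0547) did not pass.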
